A study of Mus musculus with 12 samples.

Results

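The 8 troponin genes of the mouse were followed in the calf muscle gastrocnemius 2 weeks after the sciatic nerve had been cut. They are Tnnt1, Tnnt2 and Tnnt3 (troponin T), Tnni1, Tnni2 and Tnni3 (troponin I), and Tnnc1 and Tnnc2 (troponin C), chosen by symbol from the 25094 genes that each of the 2 expression tables lists. All 8 were found in both tables. Polyadenylated RNA was sequenced from male wild-type mice of 2 inbred strains, in 4 groups with 3 libraries apiece: the right and the left leg of BALB/c, and the right and the left leg of C57BL/6. In the right leg the sciatic nerve had been cut, its ends turned back and stitched to nearby muscle, so that the nerve could not readily grow back into the muscle. The left legs are labelled healthy and served as the comparison; the protocol also describes a sham operation that exposes the nerve without cutting it, but whether it was done on these left legs is not in the labels. The labels give no age, and they leave it unsaid whether replicate libraries are from different mice; the p-values below therefore speak of the spread among the libraries at hand, possibly a technical one.

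Troponin is the calcium switch of the thin filament of striated muscle. Troponin C binds calcium, troponin I inhibits the interaction of actin and myosin until calcium arrives, and troponin T anchors the complex to tropomyosin. Fast skeletal fibres use Tnnt3, Tnni2 and Tnnc2, slow fibres use Tnnt1, Tnni1 and Tnnc1, and the heart uses Tnnt2, Tnni3 and the same Tnnc1 as slow fibres. Tnnt2 is also made for a time in developing skeletal muscle, and Tnni1 in the fetal heart. The gastrocnemius of the mouse is composed mainly of fast fibres.

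Most troponin genes lie in pairs of 1 troponin I and 1 troponin T gene. In the mm9 coordinates of the files, Tnnt1 (NM_001360154 in the BALB/c table and NM_001277904 in the C57BL/6 table) spans 4456172 to 4467577 on the minus strand of chromosome 7, and Tnni3 (NM_009406) spans 4469907 to 4474130 on the same strand, 2.3 kb away with no listed gene between them. Tnni1 (NM_001112702) spans 137696088 to 137707566 and Tnnt2 (NM_001130176) 137737438 to 137748838, both on the plus strand of chromosome 1, 29.9 kb apart with Lad1 between them. Tnni2 (NM_009405, 149627721 to 149630315) and Tnnt3 (NM_001347551, 149684741 to 149701914) lie on the plus strand of chromosome 7, 54.4 kb apart with Lsp1 between them. Tnnc1 (NM_009393) spans 32021498 to 32024915 on the plus strand of chromosome 14, and Tnnc2 (NM_009394) 164602662 to 164605234 on the minus strand of chromosome 2. Tnnt3 overlaps the listed gene Prr33. Strand was not used in counting, so reads of those genes cannot be told apart where they overlap, and the part of Prr33 in Tnnt3 was not tested. Prr33 was listed at 23.5 to 33.9 RPKM in the right legs and 106 to 109 RPKM in the left legs of BALB/c, and at 33.7 to 37.4 RPKM in the right legs and 112 to 129 RPKM in the left legs of C57BL/6.

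Because the results below set the slow and cardiac genes against a fast one, promoters of 3 slow genes, a cardiac gene and a fast gene are shown. They are RefSeq windows of GRCm38.p6 running from 250 bases before to 50 bases after an annotated start, 300 bases each, and 6 of the 8 genes matched the RefSeq table. Capitals mark matches, on either strand, to the E-box (CANNTG, the motif of MyoD and myogenin), the M-CAT motif (CATTCC, the motif of TEAD factors) and the TATA box (TATAAA). The Tnnt2 window belongs to a start 4523 bases upstream of that of the listed transcript. The windows are chr7:4515926-4516225 (minus strand) for Tnnt1, chr1:135799261-135799560 (plus strand) for Tnni1, chr14:31208062-31208361 (plus strand) for Tnnc1, chr1:135836084-135836383 (plus strand) for Tnnt2 and chr2:164779685-164779984 (minus strand) for Tnnc2.
Tnnt1: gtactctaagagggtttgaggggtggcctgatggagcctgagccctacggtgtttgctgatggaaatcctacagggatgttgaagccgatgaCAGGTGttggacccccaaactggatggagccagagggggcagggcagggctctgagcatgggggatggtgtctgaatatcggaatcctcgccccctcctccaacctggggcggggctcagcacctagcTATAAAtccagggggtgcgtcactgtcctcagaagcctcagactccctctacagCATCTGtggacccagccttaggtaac
Tnni1: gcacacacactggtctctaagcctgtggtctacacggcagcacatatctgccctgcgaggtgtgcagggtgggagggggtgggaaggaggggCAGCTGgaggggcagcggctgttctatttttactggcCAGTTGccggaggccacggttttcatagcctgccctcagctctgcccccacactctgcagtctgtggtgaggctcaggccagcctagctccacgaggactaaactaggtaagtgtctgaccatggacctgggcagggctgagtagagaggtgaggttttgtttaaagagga
Tnnc1: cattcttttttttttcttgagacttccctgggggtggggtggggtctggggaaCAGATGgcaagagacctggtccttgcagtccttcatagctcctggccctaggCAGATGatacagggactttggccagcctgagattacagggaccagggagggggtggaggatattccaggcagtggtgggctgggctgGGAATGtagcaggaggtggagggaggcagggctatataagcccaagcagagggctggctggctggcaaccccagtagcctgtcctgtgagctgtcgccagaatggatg
Tnnt2: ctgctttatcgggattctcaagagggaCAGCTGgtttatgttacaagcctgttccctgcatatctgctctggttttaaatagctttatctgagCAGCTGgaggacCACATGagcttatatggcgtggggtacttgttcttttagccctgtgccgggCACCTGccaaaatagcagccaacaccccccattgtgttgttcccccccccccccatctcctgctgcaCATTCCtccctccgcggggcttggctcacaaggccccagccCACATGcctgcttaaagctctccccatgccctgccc
Tnnc2: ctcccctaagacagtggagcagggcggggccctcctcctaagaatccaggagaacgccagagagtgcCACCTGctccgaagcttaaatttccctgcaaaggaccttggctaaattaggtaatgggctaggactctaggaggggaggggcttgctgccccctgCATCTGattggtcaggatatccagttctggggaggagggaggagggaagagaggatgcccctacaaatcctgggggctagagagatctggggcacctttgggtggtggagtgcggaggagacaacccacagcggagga

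The Tnnt2 window held 5 E-boxes and 1 M-CAT motif, which began 27 bases before the start. A second RefSeq start of Tnnt2, 3868 bases upstream of that of the listed transcript and not shown, had a window with 2 E-boxes and no M-CAT match. A second Tnni1 window, whose start lies 90 bases upstream of the one shown, held 4 E-boxes, so the number of E-boxes depends on the start chosen. The windows shown for Tnnt1, Tnni1, Tnnc1 and Tnnc2 held 2 E-boxes each. Tnnc1 also held an M-CAT motif on the reverse strand, read in its window as GGAATG, and Tnnt1 a TATA box beginning 30 bases before the start. Of all 32851 promoter windows of the table, 72.3% held an E-box, 14.7% an M-CAT motif and 13.6% a TATA box, so E-boxes are common in such windows. The MEF2 consensus, present in 3.19% of the windows, and the CArG box, present in 1.63%, were searched too and had no match in these 5 windows. A match is a run of letters and not a site at which a factor was shown to bind.

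Levels are given in RPKM, read counts divided by transcript length and by library size, so levels of different genes can be compared per length. The totals behind the scaling were 18132600 to 19282900 reads, and 3 reads correspond to 0.142 to 0.242 RPKM for these genes, which was taken as the floor of detection. Changes are given with their SE as the right leg minus the left leg in log2(RPKM + 0.5), which understates the change of genes near the floor. A gene was called when its limma p-value, adjusted by Benjamini-Hochberg over all tested genes of the comparison, was under 0.05. The median tested gene was itself 0.38 higher (log2) in the right legs of BALB/c and 0.52 higher in those of C57BL/6. After rescaling by median-of-ratios factors, which brings that median to 0.02 in both strains, the calls over all genes were 3225 higher and 2818 lower in place of 6302 and 1136 in BALB/c, and 4106 higher and 3840 lower in place of 9258 and 1246 in C57BL/6. The 2 tables were normalized separately, so levels are set beside each other across strains but not tested.

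One library stood apart from its group. In left library 1 of BALB/c, Tnnt1, Tnni1 and Tnnc1 were 8.51-, 9.11- and 9.36-fold lower than the mean of left libraries 2 and 3. The other 13 genes of a list of slow fibre sarcomere and calcium genes were also lowest there, each compared over the 3 left libraries, and over the 16 slow genes the ratio ran from 1.39 to 10.7 with a median of 5.87. The share of all genes that were lowest there was not counted. The median listed gene was also lowest there, at 0.256 RPKM against 0.369 and 0.311 RPKM in left libraries 2 and 3. Of 10858 genes averaging 1 RPKM or more, 106 (0.976%) were at least 4-fold lower in left library 1 and 27 were at least 4-fold higher. The fast troponin genes went the other way by little, with Tnnt3, Tnni2 and Tnnc2 in left libraries 2 and 3 at 0.759, 0.776 and 0.829 times their level in left library 1. The changes, strain differences and share differences of the slow troponin genes that use BALB/c are therefore given with and without this library, while their places in the order of genes and their likeness to other genes include it. Because the library was singled out by the values of these same genes, their smaller SE and p-values without it are a description and not separate support. Why it differed was not tested.

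**Figure D1:**
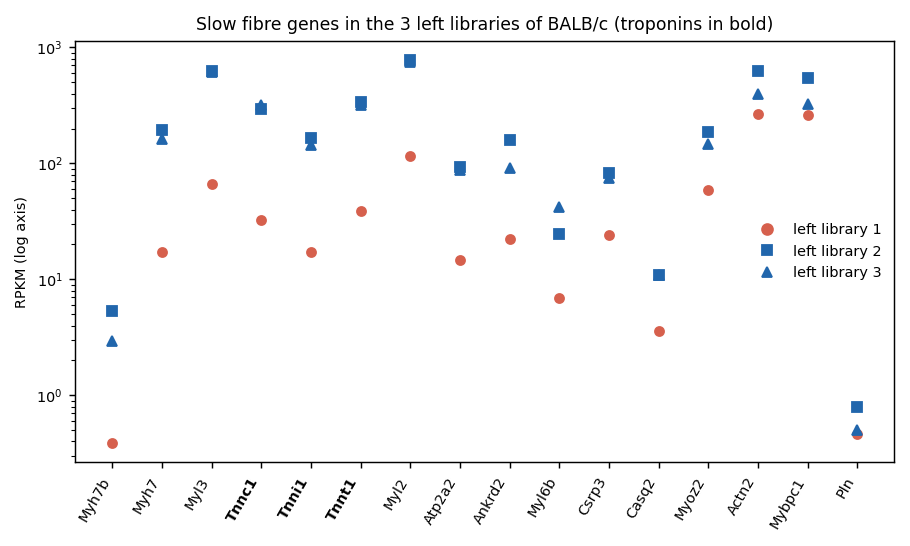
Levels of 16 slow fibre genes (RPKM, log axis) in the 3 left libraries of BALB/c, ordered by the ratio of the mean of libraries 2 and 3 to library 1, with each point a library. Library 1 is the lowest for every gene drawn, and Tnnt1, Tnni1 and Tnnc1 are 8.51- to 9.36-fold lower in it.

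After nerve section the slow and cardiac T genes were far higher in both strains, while the fast genes, which made up nearly all troponin RNA in both legs, were lower in C57BL/6. In BALB/c, 3 of the 8 genes were called higher (Tnnt1, Tnni1 and Tnnt2), against 42.5% of the 14819 genes tested that were called higher, and 5 were not called. None was called lower by limma, and none was lower at an unadjusted p under 0.05. On whole reads recovered from the RPKM values, limma-voom called 3 lower. Of all tested genes, 7.67% were called lower by limma and 50.2% in either direction, and limma-voom called 1357 of the 14819 lower. In C57BL/6 all 8 were called, 5 higher and 3 lower, where 72.2% of the 14551 genes tested were called, 63.6% higher and 8.56% lower. The right and left libraries did not overlap for 7 of 8 genes in BALB/c, where 58.5% of all tested genes did not overlap (48.1% higher and 10.4% lower). They did not overlap for 8 of 8 genes in C57BL/6, where 75.7% of all tested genes did not (66.2% higher and 9.57% lower). With such high backgrounds the counts say little, and the sizes of the changes are given gene by gene. In muscle RNA of this kind, fewer cells of a type and less RNA per cell cannot be told apart.

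**Figure D2:**
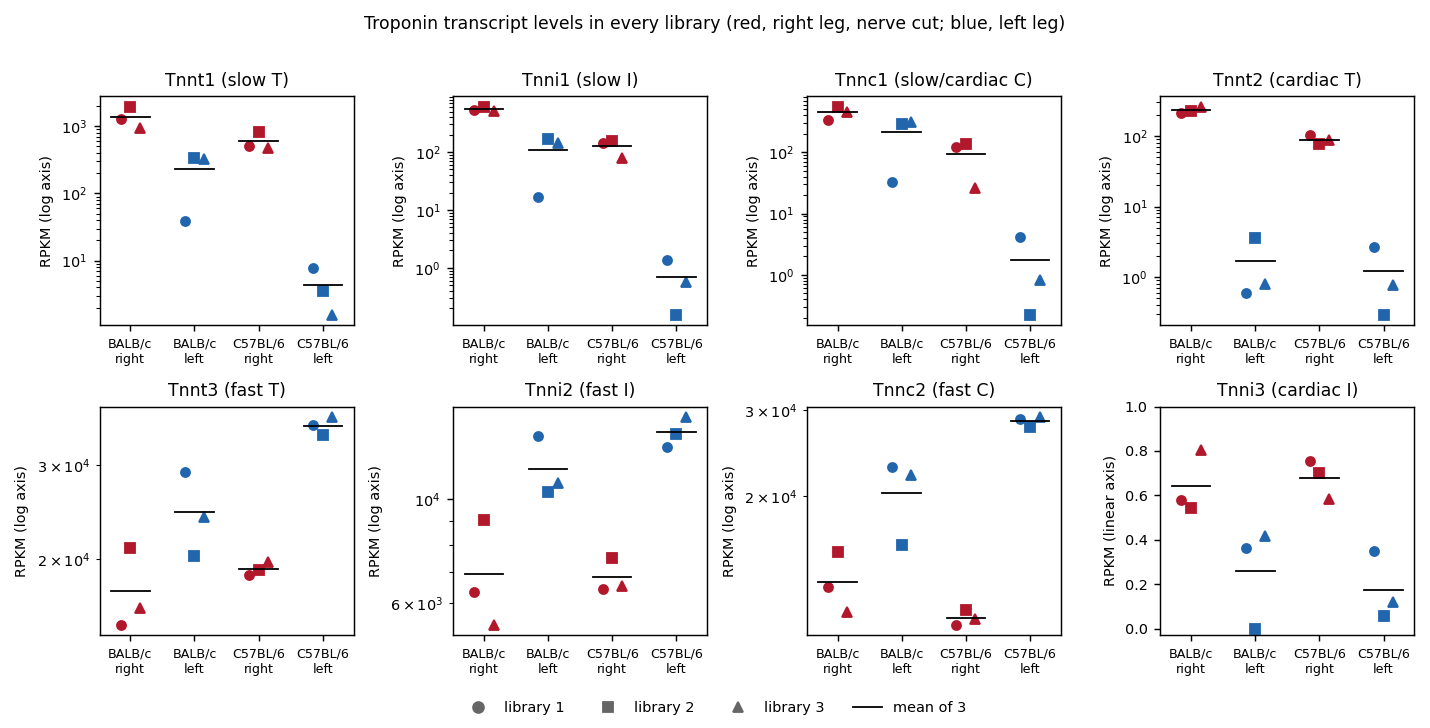
Level of each troponin gene in every library (RPKM, log axis except for Tnni3, which has a linear axis), with right legs in red, left legs in blue, 1 point per library and a line at the mean of 3. Right and left legs overlap only for Tnnt3 in BALB/c, and slow and cardiac genes lie near the bottom of their scales in the left legs of C57BL/6.

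Tnnt1, the slow troponin T, was the most abundant of the slow and cardiac members in the right legs of both strains. In BALB/c it had 1282, 1943 and 945 RPKM in the right legs, against 38.6, 337 and 320.0 RPKM in the left legs. The C57BL/6 values were 504, 819 and 469 RPKM in the right legs, against 7.86, 3.54 and 1.57 RPKM in the left legs. Every right library was above every left library of its strain, and the left libraries of BALB/c were all above those of C57BL/6. The means were 1390 ± 508 and 232 ± 168 RPKM (SD, n = 3 each) in right and left legs of BALB/c, a 5.99-fold difference, and 597 ± 193 and 4.33 ± 3.22 RPKM in right and left legs of C57BL/6, a 138-fold difference. The log2 change was 3.04 ± 0.77 in BALB/c (adjusted p = 0.0118, limma) and 7.13 ± 0.47 in C57BL/6 (adjusted p = 1.27e-05, limma). Without left library 1 the BALB/c change was 2.02 ± 0.33 (adjusted p = 0.00304, limma), and the right legs averaged 4.23 times left libraries 2 and 3. Ordered by log2 change, Tnnt1 stood at place 152 of 14819 genes in BALB/c and at place 13 of 14551 in C57BL/6.

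Tnni1, the slow troponin I, was also called higher in both strains. In BALB/c it had 522, 603 and 506 RPKM in the right legs, against 17.1, 166 and 145 RPKM in the left legs. In C57BL/6 it had 141, 158 and 79.1 RPKM in the right legs, against 1.39, 0.156 and 0.569 RPKM in the left legs, where these values rest on 27, 3 and 11 reads. The right libraries were again all above the left ones, and left library 2 of C57BL/6 was at the floor. The means were 544 ± 52.3 and 109 ± 80.7 RPKM in right and left legs of BALB/c, 4.97-fold apart, and 126 ± 41.4 and 0.704 ± 0.626 RPKM in right and left legs of C57BL/6, 179-fold apart (SD, n = 3 each). The log2 change was 2.85 ± 0.76 in BALB/c (adjusted p = 0.0146, limma) and 6.79 ± 0.40 in C57BL/6 (adjusted p = 7.97e-06, limma). Without left library 1 the BALB/c change was 1.80 ± 0.19 (adjusted p = 0.000756, limma), a 3.49-fold difference of the means.

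Tnnc1, the calcium-binding subunit of slow fibres and of the heart, rose in C57BL/6, and its change in BALB/c did not pass the main test. In BALB/c it had 341, 554 and 449.6 RPKM in the right legs, against 32.7, 294 and 318 RPKM in the left legs. The values in C57BL/6 were 121, 138 and 25.8 RPKM in the right legs, against 4.21, 0.224 and 0.819 RPKM in the left legs, with 57, 3 and 11 reads. Right library 3 of C57BL/6 was the low one of its group, but no left library reached it. The BALB/c change of 1.59 ± 0.78 was not called (adjusted p = 0.126, limma), with means 2.09-fold apart, and it was 0.52 ± 0.25 without left library 1 (adjusted p = 0.133, limma), with means 1.47-fold apart. With a replicate block the BALB/c change of Tnnc1 was called (adjusted p = 0.049, limma). In C57BL/6 the change was 5.53 ± 0.83 (adjusted p = 0.000617, limma), with means of 95.1 ± 60.6 RPKM in right legs and 1.75 ± 2.15 RPKM in left legs (SD, n = 3 each), 54.3-fold apart.

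Tnnt2, the troponin T of the heart and of developing muscle, had the largest change of the 8 genes in BALB/c. It had 210.1, 226 and 260.0 RPKM in the right legs of BALB/c, against 0.601, 3.63 and 0.787 RPKM in the left legs. In C57BL/6 it had 104, 75.9 and 87.4 RPKM in the right legs, against 2.65, 0.293 and 0.777 RPKM in the left legs. Its left legs were low in both strains, unlike those of the slow genes, which were high in the left legs of BALB/c. The log2 change was 7.01 ± 0.45 in BALB/c (adjusted p = 3.46e-05, limma), where it stood at place 7 of 14819 genes, and 5.92 ± 0.45 in C57BL/6 (adjusted p = 2.19e-05, limma), where it stood at place 29 of 14551. The means were 139-fold apart in BALB/c and 72.0-fold apart in C57BL/6. Without left library 1 the BALB/c change was 6.65 ± 0.43 (adjusted p = 0.000157, limma).

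Tnni3, the troponin I of the adult heart, did not share the rise of Tnnt2 in size and stayed under 1 RPKM in all 12 libraries. It was counted with 10, 9 and 14 reads in the right legs of BALB/c, against 6, 0 and 7 reads in the left legs. It was counted with 13, 12 and 10 reads in the right legs of C57BL/6, against 6, 1 and 2 reads in the left legs. The left libraries with 0, 1 and 2 reads lie under the floor of 3 reads. The highest level was 0.805 RPKM in right legs and 0.418 RPKM in left legs, both in BALB/c. The change was 0.63 ± 0.24 in BALB/c (adjusted p = 0.061, limma), called without left library 3 (0.79, adjusted p = 0.0466, limma), and 0.82 ± 0.17 in C57BL/6 (adjusted p = 0.00308, limma), and 0.53 in C57BL/6 after median-of-ratios rescaling (adjusted p = 0.0428, limma). With a replicate block the BALB/c change of Tnni3 was called as well (adjusted p = 0.0393, limma). Tnnt1, its neighbour 2.3 kb away, reached 1943 RPKM.

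The fast genes were the most abundant of the 8, and all 3 fell in C57BL/6. Tnnt3, the fast troponin T, had 15045, 20962 and 16170.2 RPKM in the right legs of BALB/c, against 29156.5, 20284.5 and 23973 RPKM in the left legs. Its C57BL/6 levels were 18675, 19099.9 and 19723 RPKM in the right legs, against 35698, 34237 and 36991 RPKM in the left legs. The legs overlapped in BALB/c, because right library 2 was above left library 2, and were far apart in C57BL/6. Right library 2 of BALB/c also had a higher RPKM sum over all genes (598694.5) than right libraries 1 and 3 (494811 and 502981). Whether the legs overlap for Tnnt3 under another scaling was not tested. The log2 change was -0.49 ± 0.41 in BALB/c (adjusted p = 0.352, limma) and -0.89 ± 0.17 in C57BL/6 (adjusted p = 0.00201, limma), where the right legs had 0.538 times the mean of the left legs. After median-of-ratios rescaling the change of Tnnt3 was -1.02 in BALB/c (adjusted p = 0.23, limma) and -1.62 in C57BL/6 (adjusted p = 0.000174, limma).

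Tnni2, the fast troponin I, had 6329, 9025 and 5395 RPKM in the right legs of BALB/c, against 13612, 10333 and 10803 RPKM in the left legs. In C57BL/6 it had 6418, 7492 and 6525 RPKM in the right legs, against 12899, 13760.0 and 14967 RPKM in the left legs. The legs did not overlap in either strain. The change was -0.77 ± 0.35 in BALB/c (adjusted p = 0.102, limma) and -1.03 ± 0.15 in C57BL/6 (adjusted p = 0.000492, limma), and the right legs had 0.597 and 0.491 times the left mean in BALB/c and in C57BL/6. After rescaling the change of Tnni2 was -1.29 in BALB/c (adjusted p = 0.0738, limma) and -1.75 in C57BL/6 (adjusted p = 4.88e-05, limma).

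Tnnc2, the fast troponin C, had the largest fall of the fast genes in C57BL/6. It had 13038, 15422 and 11599 RPKM in the right legs of BALB/c, against 22909.5, 15899 and 22095 RPKM in the left legs. Its levels in C57BL/6 were 10929, 11742 and 11261 RPKM in the right legs, against 28726, 27651 and 29038 RPKM in the left legs. In BALB/c the highest right library came close to the lowest left one, and both carry the number 2. The change was -0.60 ± 0.39 in BALB/c (adjusted p = 0.238, limma) and -1.33 ± 0.15 in C57BL/6 (adjusted p = 0.000157, limma), where the right legs had 0.397 times the left mean. After rescaling it was -1.12 in BALB/c (adjusted p = 0.161, limma) and -2.05 in C57BL/6 (adjusted p = 3.09e-05, limma). On recovered reads limma-voom called all 3 fast genes lower in BALB/c, with adjusted p = 0.0416 for Tnnt3, 0.0109 for Tnni2 and 0.0189 for Tnnc2. Leaving out right library 2 of BALB/c made Tnni2 a call (-0.98, adjusted p = 0.0355, limma).

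**Figure D3:**
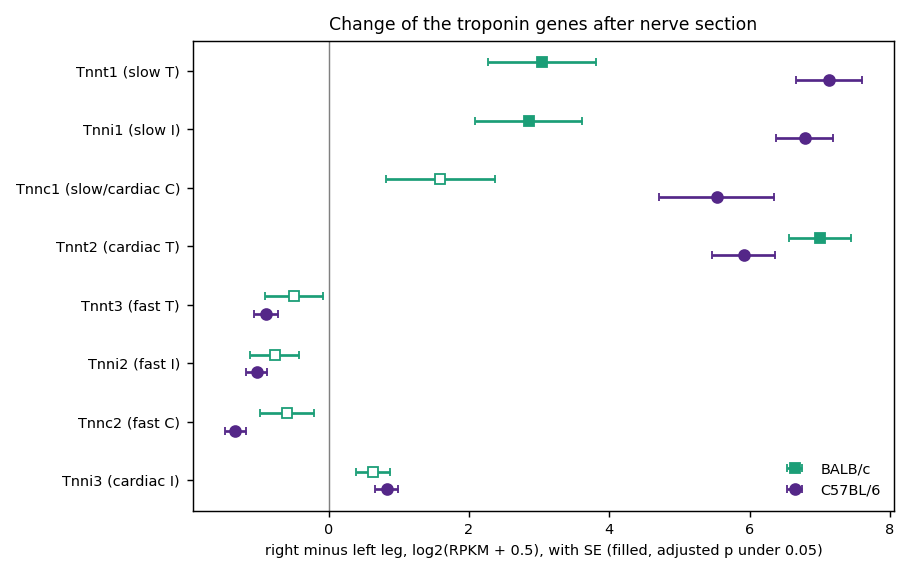
Change of each troponin gene in the right against the left leg (log2(RPKM + 0.5), with SE) in BALB/c (green squares) and C57BL/6 (purple circles), filled where the adjusted p was under 0.05. Values for the slow genes lie between 1.59 (Tnnc1, not called) and 3.04 in BALB/c, or between 0.52 and 2.02 without its left library 1, and between 5.53 and 7.13 in C57BL/6; those for Tnnt2 are 7.01 in BALB/c and 5.92 in C57BL/6.

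The difference between the strains was tested over all 12 libraries as the change in BALB/c minus that in C57BL/6. It was -4.09 ± 1.03 for Tnnt1 (adjusted p = 0.0387, limma) and -3.94 ± 0.98 for Tnni1 (adjusted p = 0.037, limma), and these 2 of the 8 genes were called lower. Of the 14165 genes tested in both tables, 6.09% were called, 4.33% lower and 1.76% higher. Tnnc1 had a difference of the same size, -3.94 ± 1.28, that was not called (adjusted p = 0.0898, limma). Tnnt2 differed in the other direction by 1.09 ± 0.71 (adjusted p = 0.369, limma). The fast genes differed by 0.40 for Tnnt3, 0.26 for Tnni2 and 0.74 for Tnnc2 (adjusted p = 0.528, 0.664 and 0.217, limma), and Tnni3 by -0.20 (adjusted p = 0.733, limma).

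Which side of the threshold the slow genes fell on depended on single libraries. Without left library 1 of BALB/c the differences were -5.12 for Tnnt1 (adjusted p = 0.00237, limma), -4.99 for Tnni1 (adjusted p = 0.00158, limma) and -5.01 for Tnnc1 (adjusted p = 0.0166, limma), and 3 genes were called lower. Without C57BL/6 left library 2, left library 3 or any of its 3 right libraries, and without BALB/c left library 2, left library 3, right library 1 or right library 3, none of the 8 was called by limma. The number called was 1 without C57BL/6 left library 1 and 2 without BALB/c right library 2. In all these fits that left out a library other than BALB/c left library 1, 226 to 784 of all tested genes were called lower. The differences kept their sign, between -5.12 and -3.56 for Tnnt1 and between -4.99 and -3.36 for Tnni1 over the 12 fits that each left out 1 library. The smaller changes of slow genes in BALB/c stood beside higher levels in its left legs: Tnnt1, Tnni1 and Tnnc1 averaged 232, 109 and 215 RPKM in left legs of BALB/c, and 4.33, 0.704 and 1.75 RPKM in left legs of C57BL/6. Levels in the right legs were also higher in BALB/c, at 1390, 544 and 448 RPKM, than in C57BL/6, at 597, 126 and 95.1 RPKM. These levels come from separately normalized tables and were not tested against each other.

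Within a library the share of each isoform in its troponin type does not depend on how the library was scaled. The slow share of troponin T was 7.75, 8.40 and 5.44% in the right legs of BALB/c, against 0.132, 1.64 and 1.32% in the left legs. It was 2.61, 4.10 and 2.31% in the right legs of C57BL/6, against 0.0220, 0.0103 and 0.00425% in the left legs. The slow isoform was thus a minor part of troponin T RNA in every library, including those of the cut side. The mean shares were 7.20 ± 1.56% in right legs and 1.03 ± 0.792% in left legs of BALB/c, and 3.01 ± 0.955% in right legs and 0.0122 ± 0.00902% in left legs of C57BL/6 (SD, n = 3 each).

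Troponin I gave similar shares. Its slow share was 7.62, 6.27 and 8.57% in the right legs of BALB/c, against 0.125, 1.58 and 1.33% in the left legs. In C57BL/6 it was 2.14, 2.06 and 1.20% in the right legs, against 0.0107, 0.00113 and 0.00380% in the left legs. Legs did not overlap in either strain, and cardiac Tnni3 made up at most 0.0136% of troponin I RNA in any library.

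Troponin C had the smallest share differences of the 3 types. The share of Tnnc1 was 2.55, 3.47 and 3.73% in the right legs of BALB/c, against 0.142, 1.81 and 1.42% in the left legs. For C57BL/6 it was 1.10, 1.16 and 0.228% in the right legs, against 0.0147, 0.000810 and 0.00282% in the left legs. The right minus left difference was 2.12 percentage points in BALB/c and 0.824 in C57BL/6, smaller than that of slow troponin T (6.17 points in BALB/c and 2.99 in C57BL/6) and of slow troponin I (6.48 and 1.80 points). Without left library 1 the BALB/c differences were 5.72 points for slow troponin T, 6.03 for slow troponin I and 1.63 for Tnnc1. No difference between troponin types was tested.

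The cardiac share of troponin T was 1.27, 0.975 and 1.50% in the right legs of BALB/c, against 0.00206, 0.0176 and 0.00324% in the left legs. It was 0.541, 0.380 and 0.431% in the right legs of C57BL/6, against 0.00742, 0.000856 and 0.00210% in the left legs. Unlike the slow share, it was at most 0.0176% in every left library of both strains. Fast Tnnt3 made up 91.6% of troponin T RNA in right legs and 98.96% in left legs of BALB/c, and 96.5% in right legs and 99.98% in left legs of C57BL/6.

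**Figure D4:**
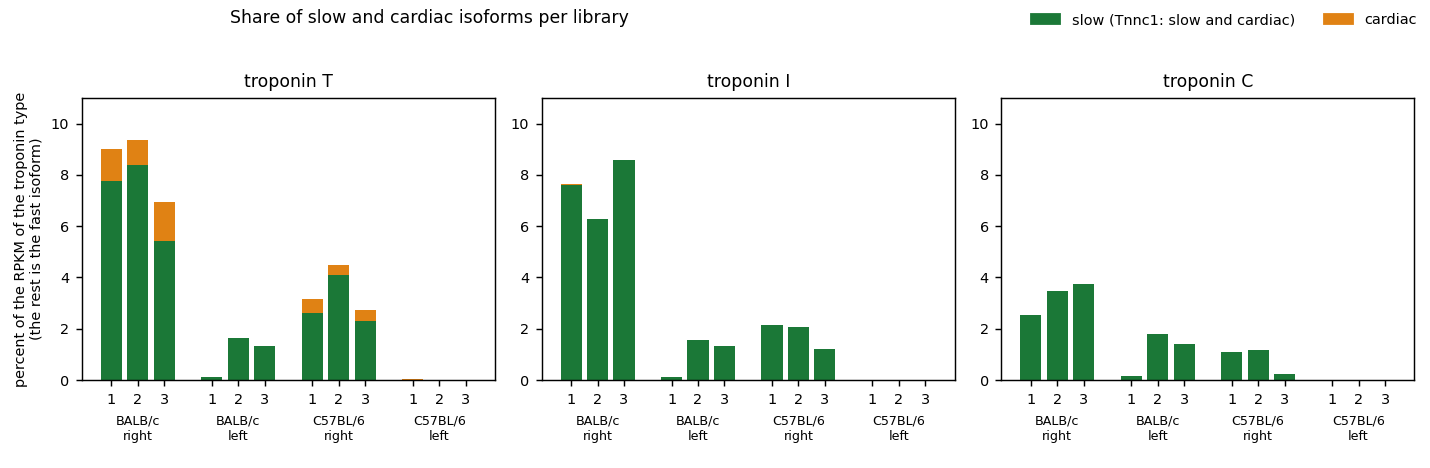
Share of slow (green) and cardiac (orange) isoforms in the RPKM of troponin T, I and C, in percent, with 1 bar per library. The slow share of troponin T lies between 5.44 and 8.40% in right legs of BALB/c and between 2.31 and 4.10% in right legs of C57BL/6, with no left library above 1.64%.

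The 8 genes together made up much of the summed RPKM, and less of it on the cut side. RPKM is divided by transcript length, and these transcripts are 684 to 1094 bases long, so this is not a share of reads. They made up 7.53 ± 0.565% of all RPKM in right legs and 12.4 ± 1.36% in left legs of BALB/c, and 7.72 ± 0.347% in right legs and 15.8 ± 0.0915% in left legs of C57BL/6 (SD, n = 3 each). Their summed level was 35325 to 48736 RPKM in right legs and 47317 to 65767.5 RPKM in left legs of BALB/c, so the legs overlapped there in RPKM. As a percentage of all RPKM the legs of BALB/c did not overlap, at 7.02 to 8.14% in right legs and 11.1 to 13.8% in left legs. In C57BL/6 it was 36893 to 39525 RPKM in right legs, against 75652 to 81000.1 RPKM in left legs. The summed ratio of troponin T to troponin C RNA was 1.38 ± 0.121 in right legs and 1.21 ± 0.109 in left legs of BALB/c, and 1.74 ± 0.0569 in right legs and 1.25 ± 0.0194 in left legs of C57BL/6. That of troponin T to troponin I was 2.59 ± 0.310 in right legs and 2.11 ± 0.131 in left legs of BALB/c, and 2.87 ± 0.235 in right legs and 2.58 ± 0.166 in left legs of C57BL/6.

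The 7 members other than Tnni3, which was too low to be included, were compared over the 12 libraries. Likeness was measured as the root mean square difference of log2(RPKM + 0.5) values, each centred on the mean of its own table, over 10217 genes averaging 1 RPKM or more in both tables. The 3 fast genes lay 0.155 to 0.180 apart from each other, the slow genes 0.439 to 0.996, and Tnnt2 1.63 to 2.10 from the slow genes and 3.65 to 3.78 from the fast ones. The values were not scaled to the spread of each gene, so genes that change little lie close by this measure. Distances among fast genes therefore cannot be weighed against those among slow genes. The closest gene to Tnnt1 was Tnni1 (0.44), followed by Uchl1 (0.77), which encodes a ubiquitin hydrolase, and Csrp3 (0.81), which encodes a muscle LIM protein. The closest to Tnni1 were Tnnt1 (0.44), Uchl1 (0.71) and Tnnc1 (0.77). The closest to Tnnt2 were Chrna1 (0.62), the alpha subunit of the muscle acetylcholine receptor, Gadd45a (0.63), a stress-response gene, and E230016M11Rik (0.72). The closest to Tnnt3 were 2210408F21Rik (0.098), Mylpf (0.116), a fast myosin light chain, and Arl3 (0.126). Aldoa, a glycolytic aldolase, was the closest gene to both Tnni2 (0.14) and Tnnc2 (0.13). Capn3 (0.15) and Fez2 (0.15) followed for Tnni2, and Ovol1 (0.14) and Cacng6 (0.15) for Tnnc2.

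Among the other slow fibre genes, most rose in C57BL/6. Of 13 slow sarcomere and calcium genes tested, 3 were called higher in BALB/c and 12 in C57BL/6, beside 42.5% and 63.6% of all tested genes in BALB/c and in C57BL/6. The medians of the list were 0.54 and 3.50 in BALB/c and in C57BL/6, beside medians of 0.38 and 0.52 over all genes. Without left library 1, 3 were called higher in BALB/c as well. Csrp3 averaged 807 ± 565 RPKM in right legs and 60.4 ± 31.8 RPKM in left legs of BALB/c (3.70, adjusted p = 0.0011, limma), and 1546 ± 527 RPKM in right legs and 7.02 ± 4.92 RPKM in left legs of C57BL/6 (7.82, adjusted p = 6.31e-06, limma; SD, n = 3 each). Ankrd2, a stretch-responsive ankyrin repeat protein, rose by 2.94 in BALB/c (adjusted p = 0.0153, limma) and by 5.92 in C57BL/6 (adjusted p = 2.64e-05, limma). Myh7, the slow myosin heavy chain, had a change of 1.18 in BALB/c (adjusted p = 0.258, limma) and rose by 5.27 in C57BL/6 (adjusted p = 0.000291, limma). Myoz2, a slow Z-disc protein, had a change of 0.999 in BALB/c (adjusted p = 0.0974, limma), which was called without left library 2 (1.33), and rose by 4.16 in C57BL/6 (adjusted p = 7.42e-06, limma). The strain difference was called lower for 7 of the 13 genes, beside 4.33% of all genes tested in both tables. The number was 12 without left library 1 of BALB/c. It was 3 without C57BL/6 left library 1, left library 3, right library 2 or right library 3 or BALB/c left library 2, 4 without C57BL/6 left library 2 or BALB/c left library 3 or right library 3, and 0 with no filter on low values. The number of all genes called lower moved too, from 613 of 14165 to 1028 of 14170 without left library 1 of BALB/c. It was 226 to 426 in the fits with 3 or 4 slow genes called, and 317 of 25094 with no filter.

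Other fast fibre genes did not all follow the fast troponins. Of 12 tested, 6 were called lower in BALB/c, and 9 lower and 2 higher in C57BL/6. Over all tested genes 7.67% were called lower in BALB/c, and 8.56% lower and 63.6% higher in C57BL/6. Mybpc2, the fast myosin-binding protein C, averaged 93.6 ± 57.9 RPKM in right legs and 1473 ± 228 RPKM in left legs of BALB/c (-4.15, adjusted p = 0.000157, limma), and 60.2 ± 25.6 RPKM in right legs and 1827 ± 109 RPKM in left legs of C57BL/6 (-5.001, adjusted p = 6.56e-06, limma; SD, n = 3 each). Mylk2, the kinase of skeletal myosin light chains, fell by 1.32 in BALB/c (adjusted p = 0.000507, limma) and fell by 2.63 in C57BL/6 (adjusted p = 7e-07, limma). Myh2 and Myh1, the myosin heavy chains of the slower fast fibres, had changes of 1.11 and 0.63 in BALB/c that were not called (adjusted p = 0.079 and 0.143, limma). Without left library 2 of BALB/c both were called higher there (1.57 and 1.00, adjusted p = 0.0159 and 0.00761, limma), and Myh2 also without right library 3 (adjusted p = 0.043, limma). They were the 2 that rose in C57BL/6, by 3.77 and 2.91 (adjusted p = 1.64e-05 and 0.000112, limma).

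Among 17 tested partners of troponin in the thin filament, 7 were called higher and 3 lower in BALB/c, and 10 higher and 6 lower in C57BL/6. The numbers called higher are near the shares of all tested genes, 42.5% in BALB/c and 63.6% in C57BL/6. For genes called lower those shares were 7.67% and 8.56%. After median-of-ratios rescaling the split was 3 higher and 6 lower in BALB/c, and 8 higher and 7 lower in C57BL/6. Rescaled calls over all genes were 3225 higher and 2818 lower of 14819 in BALB/c. In C57BL/6 they were 4106 higher and 3840 lower of 14551. Lmod2, which elongates thin filaments, rose by 2.40 in BALB/c (adjusted p = 0.00289, limma) and by 4.83 in C57BL/6 (adjusted p = 5.62e-06, limma). Actc1, cardiac actin, fell while cardiac Tnnt2 rose: it averaged 38.0 ± 5.84 RPKM in right legs and 162 ± 53.1 RPKM in left legs of BALB/c (-2.03, adjusted p = 0.000303, limma), and 30.9 ± 17.0 RPKM in right legs and 713 ± 130 RPKM in left legs of C57BL/6 (-4.61, adjusted p = 1.76e-05, limma; SD, n = 3 each). Tpm3, the slow tropomyosin, had a change of 1.44 in BALB/c (adjusted p = 0.161, limma) and rose by 4.48 in C57BL/6 (adjusted p = 0.000723, limma). Klhl40, which stabilizes thin filament proteins, rose by 1.75 in BALB/c and by 1.71 in C57BL/6 (adjusted p = 6.56e-05 and 4.11e-06, limma).

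Of 7 tested developmental and cardiac sarcomere genes, 3 were called higher and 1 lower in BALB/c, and 3 higher and 2 lower in C57BL/6. Among all tested genes 42.5% were called higher and 7.67% lower in BALB/c, and 63.6% higher and 8.56% lower in C57BL/6. Ankrd1, a cardiac ankyrin repeat protein, averaged 259.5 ± 109 RPKM in right legs and 2.82 ± 1.51 RPKM in left legs of BALB/c (6.29, adjusted p = 4.22e-05, limma), and 764 ± 275 RPKM in right legs and 2.55 ± 1.26 RPKM in left legs of C57BL/6 (7.98, adjusted p = 2.29e-06, limma; SD, n = 3 each). Myh3, the embryonic myosin heavy chain, rose by 2.64 in BALB/c (adjusted p = 0.000263, limma) and by 5.38 in C57BL/6 (adjusted p = 2.02e-06, limma). Myl4, the embryonic and atrial light chain, rose by 6.30 in BALB/c (adjusted p = 2.87e-05, limma) and by 3.004 in C57BL/6 (adjusted p = 8.81e-07, limma).

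Genes that regulate fibre type were split in direction, and the split depended on scaling. Of 29 tested, 11 were called higher and 6 lower in BALB/c, and 16 higher and 6 lower in C57BL/6. Before rescaling, the shares of all tested genes were 42.5% higher and 7.67% lower in BALB/c, and 63.6% higher and 8.56% lower in C57BL/6. After median-of-ratios rescaling the split of the list was 4 higher and 12 lower in BALB/c, and 7 higher and 13 lower in C57BL/6. All genes were then split into 3225 higher and 2818 lower of 14819 in BALB/c. In C57BL/6 that split was 4106 higher and 3840 lower of 14551. Myog, encoding myogenin, rose by 4.73 in BALB/c and by 5.57 in C57BL/6 (adjusted p = 1.22e-05 and 1.99e-05, limma), and Myod1 by 3.84 and 3.95 in BALB/c and in C57BL/6 (adjusted p = 0.000142 and 8.8e-06, limma). Tead4, encoding a TEAD factor, rose by 1.67 in BALB/c and by 2.98 in C57BL/6 (adjusted p = 0.00043 and 3.18e-06, limma). Maf, a fast fibre regulator, fell by 1.89 in BALB/c and fell by 2.78 in C57BL/6 (adjusted p = 0.00013 and 8.14e-06, limma).

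Of 10 tested kinases and phosphatases listed as candidates to act on troponin, 3 were called higher and 5 lower in BALB/c, and 4 higher and 4 lower in C57BL/6. Their action on troponin was not tested. The shares of all tested genes were 42.5% higher and 7.67% lower in BALB/c, and 63.6% higher and 8.56% lower in C57BL/6. After rescaling 1 of the list was higher and 7 lower in BALB/c, and 1 higher and 6 lower in C57BL/6. The matching calls over all genes were 3225 higher and 2818 lower of 14819 in BALB/c. In C57BL/6 they were 4106 higher and 3840 lower of 14551. Ppp2ca, a catalytic subunit of protein phosphatase 2A, rose by 0.96 in BALB/c and by 1.01 in C57BL/6 (adjusted p = 0.000777 and 1.73e-05, limma). Prkca, a protein kinase C, fell by 0.83 in BALB/c and fell by 0.69 in C57BL/6 (adjusted p = 0.00945 and 0.000445, limma). Pak1, a p21-activated kinase, fell by 0.68 in BALB/c (adjusted p = 0.0162, limma), a call lost without left library 1 (adjusted p = 0.0586), left library 3 (0.0615) or right library 3 (0.0621) and with no filter (0.0695). It was 0.86 higher in C57BL/6 (adjusted p = 0.0106, limma), where the call was lost after rescaling (0.15, adjusted p = 0.572, limma) and with no filter (adjusted p = 0.0683, limma). Stk26, a Ste20-type kinase, changed by -0.18 in BALB/c (adjusted p = 0.283, limma) and fell by 0.68 in C57BL/6 (adjusted p = 0.00532, limma), with mean levels under 1 RPKM in all groups.

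The labelled muscle was checked against markers of other cells. Of 9 heart muscle markers, 8 stayed at or under 0.431 RPKM in all 12 libraries, with Nppb and Nkx2-5 at 0 in each, beside 75.9 to 260.0 RPKM of Tnnt2 in the right legs. The ninth, Myh6, a cardiac myosin heavy chain closely similar in sequence to its neighbour Myh7, had 44.4 to 68.8 RPKM in right legs and 4.55 to 48.6 RPKM in left legs of BALB/c, but 0.123 to 0.212 RPKM in right legs and 0.053 to 0.106 RPKM in left legs of C57BL/6. Myh7 itself had 141 to 238 RPKM in right legs and 17.3 to 193 RPKM in left legs of BALB/c, and 18.7 to 82.3 RPKM in right legs and 0.160 to 2.36 RPKM in left legs of C57BL/6. Whether the genes share reads in the deposited counting was not tested. Nppa, an atrial peptide, had a change of 0.12 in BALB/c and 0.33 in C57BL/6 (adjusted p = 0.424 and 0.178, limma). The summed level of all 9 was 44.7 to 69.3 RPKM in right legs and 4.95 to 49.1 RPKM in left legs of BALB/c, and 0.499 to 1.08 RPKM in right legs and 0.312 to 0.540 RPKM in left legs of C57BL/6.

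Markers of other cells were measured beside the troponins, and their part in the results was not tested. Of 10 macrophage markers, 7 were called higher in BALB/c and 10 in C57BL/6, beside 42.5% and 63.6% of all tested genes in BALB/c and in C57BL/6, and 5 in BALB/c and 10 in C57BL/6 after rescaling, with summed levels of 186 to 299.7 RPKM in right legs and 62.5 to 106 RPKM in left legs of BALB/c, and 91.7 to 184 RPKM in right legs and 9.69 to 13.3 RPKM in left legs of C57BL/6. Cd68 rose by 1.63 in BALB/c and by 4.52 in C57BL/6, C1qa by 1.78 and 3.30, C1qb by 1.84 and 3.19, and Lyz2 by 1.55 and 3.12, all called in both strains. Of 10 fibroblast markers, 5 were called higher and 1 lower in BALB/c, and 10 higher in C57BL/6, and the BALB/c share is near the 42.5% of all tested genes. The number called higher in BALB/c was 1 without left library 1, left library 3, right library 1 or right library 2, and 3 without right library 3. In these fits 5086 to 6779 of all tested genes were called higher, in place of 6302. After rescaling, limma called 2 lower and none higher in BALB/c, and 6 higher in C57BL/6. Beside the rescaled counts of both marker lists, all genes gave 3225 higher and 2818 lower of 14819 in BALB/c. In C57BL/6 all genes gave 4106 higher and 3840 lower of 14551. Pi16 rose by 1.46 in BALB/c and by 2.90 in C57BL/6, Lum by 0.89 and 2.71, and Col3a1 by 0.56 and 2.19, whereas Col1a1 fell by 0.76 in BALB/c and rose by 1.99 in C57BL/6. The BALB/c calls of Pi16, Lum and Col3a1 were lost without left library 1 (1.08, 0.62 and 0.37). The fibroblast sums, which overlapped between the legs of BALB/c, were 560.2 to 734 RPKM in right legs and 475 to 761 RPKM in left legs of BALB/c, and 241.5 to 461 RPKM in right legs and 89.2 to 148 RPKM in left legs of C57BL/6.

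Of 7 satellite cell markers, 2 were called higher and 1 lower in BALB/c, and 3 higher and 1 lower in C57BL/6. Over all tested genes 42.5% were called higher and 7.67% lower in BALB/c, and 63.6% and 8.56% in C57BL/6. The same shares stand beside the smooth muscle counts below. Cdh4 fell by 2.81 in BALB/c and fell by 2.86 in C57BL/6, and Myf5 rose by 1.85 and 1.40 in BALB/c and in C57BL/6. Chodl and Vcam1 had changes of 0.09 and 0.36 in BALB/c that were not called (adjusted p = 0.766 and 0.0865, limma), and rose in C57BL/6 (0.81 and 0.62). After rescaling neither was called in C57BL/6 (0.24 and 0.21). The summed level was 19.1 to 25.6 RPKM in right legs and 14.9 to 18.2 RPKM in left legs of BALB/c, and 13.5 to 23.1 RPKM in right legs and 16.6 to 18.8 RPKM in left legs of C57BL/6. Of 6 tested smooth muscle markers 1 was called higher in each strain, Des, which muscle fibres also make (1.20 in BALB/c and 1.18 in C57BL/6); after rescaling it was not called in BALB/c (0.68, adjusted p = 0.137, limma). Their sum, nearly all of it Des, was 3130 to 4431 RPKM in right legs and 1546 to 1746 RPKM in left legs of BALB/c, and 2664 to 2899 RPKM in right legs and 1261 to 1302 RPKM in left legs of C57BL/6.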

How the data were processed

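The authors deposited RPKM values in 1 table per strain, which HOMER made per the file headers, counting reads of both strands in exons and keeping 1 transcript per gene with mm9 positions. HISAT2, DESeq2 and the builds GRCm38 and mm10 are named, without versions, in the submitters' processing notes. The build used for alignment was not given in the sources used here. Columns were matched through the codes in the sample descriptions, and all were used. Whole reads (within 0.1 read) were recovered with the transcript lengths and 1 scaling total per library for 99.67% to 99.8% of values, with 14826932 to 17323390 reads per library in listed genes.

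Genes averaging at least 0.1 RPKM over a table were tested two-sided on log2(RPKM + 0.5) in R 4.3.3 with limma 3.58.1, using lmFit and eBayes with a mean-variance trend, and p-values were adjusted by Benjamini-Hochberg over every gene tested. All 8 genes passed that filter in both tables. The strain difference was a contrast over 12 libraries. Shares and troponin sums were computed in Python 3.11.15, and list sums and likeness in R, and none of them carries a test. The fits were tested on simulated data. The members and lists were chosen with earlier results of these data known. From each list, up to 4 called genes with the largest change in C57BL/6 are named, or the largest where none was called; Prr33 and the heart markers other than Nppa were named after their values were seen. The floor of 3 reads covers counting error only. Alternatives were pseudocounts of 0.1 and 1, no filter, a filter of 1 RPKM, median-of-ratios rescaling, a replicate block, eBayes without a trend, limma-voom on recovered reads, shares of reads or of summed RPKM, and leaving out each library.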

Additional observations from a re-analysis of the deposited data

Results flagged for a closer look

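The change after nerve section differed between the strains, by the interaction test, for 17 of the genes named above. For comparison, 6.09% of the 14165 genes tested for this difference were called, 4.33% lower and 1.76% higher. Values are the log2 change in BALB/c minus that in C57BL/6. Among the troponins the called genes were Tnnt1 (-4.09) and Tnni1 (-3.94), and in most of the fits that each left out 1 library neither was called. The slow fibre genes Csrp3 (-4.12) and Myoz2 (-3.16) differed in the same direction, as did Myh2 (-2.66) and Myh1 (-2.28), the thin filament gene Lmod2 (-2.43) and the embryonic Myh3 (-2.75). Cardiac actin Actc1 (2.58), the embryonic light chain Myl4 (3.30) and the kinase Mylk2 (1.31) differed in the other direction. The regulator Tead4 differed by -1.31 and the kinase Pak1 by -1.54, where the change of Pak1 within either strain lost its call under several alternatives. Markers of macrophages and fibroblasts differed too, by -2.89 for Cd68, -1.57 for Lyz2, -1.64 for Col3a1 and -2.75 for Col1a1. Many of these calls rested on single libraries. Without C57BL/6 left library 1 or left library 3, no thin filament partner and no fast fibre gene was called lower, so Lmod2, Myh2 and Myh1 lost their calls. Macrophage markers called lower were then 1 in place of 3, and fibroblast markers 1 or 2 in place of 4. Of all tested genes, 277 and 233 were called lower without C57BL/6 left library 1 and without left library 3, in place of 613. Other genes named above were not called, among them Tnnc1, Tnnt2, Myh7, Ankrd1, Ankrd2 and Myog. Most of the 17 genes were named because of a large change in C57BL/6, so their differences are a description of chosen genes. For the same reason their number cannot be weighed against the share of all genes.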

How the results depend on the processing

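Over the 8 troponin genes and 3 comparisons, 343 of 381 values recomputed under an alternative kept their direction and their side of the threshold, 28 lost the call, 10 gained it and none changed sign. The number called lower in the strain difference was 1 with a pseudocount of 1, 0 with no filter, 1 with limma-voom and 0 to 3 with 1 library left out. Over all genes it was 576, 317, 861 and 226 to 1028 in the same order, beside 613 in the main fit. Tnni1 had adjusted p = 0.0549 (limma) with a pseudocount of 1. With no filter the SE of abundant genes grew, to 8.38 for Tnnt3 in C57BL/6, and the number called lower there was 0 and the number called higher in BALB/c was 1. In BALB/c the number called lower was 2 without a trend, 3 with limma-voom and 0 to 1 with 1 library left out, and the number called higher was 3 to 4 with 1 library left out. With reads in place of RPKM the slow share of troponin I differed between the legs by 8.96 points in BALB/c and by 2.56 points in C57BL/6. With 1 library left out the slow share differences ran from 5.57 to 7.05 points in BALB/c and 2.45 to 3.34 in C57BL/6 for troponin T, from 5.93 to 7.08 and 1.62 to 2.10 for troponin I, and from 1.63 to 2.47 and 0.658 to 1.12 for troponin C, and the cardiac share of troponin T from 1.11 to 1.38 and 0.402 to 0.483. Chodl turned to -0.35 in BALB/c after median-of-ratios rescaling and ran from -0.14 (without left library 1) to 0.23 with 1 library left out, and Vcam1 to -0.0016 after rescaling; the causes were not tested.

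Same-numbered right and left libraries were weakly correlated in their deviations (0.030, 0.054 and 0.202 in BALB/c, 0.117, 0.060 and 0.034 in C57BL/6). Libraries with different numbers had correlations from -0.163 to 0.089. Whether same-numbered legs came from the same mouse is not in the labels, though the library codes of both legs of BALB/c skip the same number. Weak correlations cannot settle this, so the main fits left the numbers unpaired and a replicate block was an alternative. With a replicate block over all libraries the number of troponin genes called higher in BALB/c was 5, adding Tnni3 (adjusted p = 0.0393, limma) and Tnnc1 (adjusted p = 0.049, limma), and Myh2 was called higher there too (adjusted p = 0.0216, limma). Tnni3 rests on at most 14 reads per library, which limits any statement on it.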
